A study of Mus musculus with 10 samples.

Results

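The genes described here are 9 glucocorticoid targets that act in fuel choice, lipid storage and the arrest of growth: Pdk4, Plin4, Angptl4, Sult1a1, Hif3a, Cdkn1a, Ddit4, Errfi1 and Map3k6. They were 9 of the 55471 gene identifiers in the table, and all 9 passed the count minimum of 10 counts in at least 5 libraries, as 17101 genes did. They were chosen by their measured values in these same libraries, partly for large rises with allopregnanolone, so their differences between the groups are a description. Whether they pass the threshold used for all genes is given as part of it, and is no independent test of them. RNA came from the whole brain of 10 wild-type Swiss Webster mouse pups, labelled neonatal day 5, and every pup had a hypoxic-ischemic injury of the brain, that is, damage from too little oxygen and blood. In 5 pups (numbers 1 to 5) the injury was left untreated, and 5 pups (numbers 6 to 10) were treated with allopregnanolone, a steroid derived from progesterone that enhances GABA-A receptors. Every pup gave 1 library, and uninjured pups were not analysed here.

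Glucocorticoids enter cells and bind the glucocorticoid receptor, which moves to the nucleus and binds DNA at a pair of inverted hexamers, the glucocorticoid response element. In many tissues the receptor raises a programme that saves glucose (Pdk4), handles lipid (Plin4, Angptl4) and slows growth through cell cycle, mTORC1 and EGF receptor inhibitors (Cdkn1a, Ddit4, Errfi1). Several of these genes have other well-known inputs, such as hypoxia-inducible factors for Ddit4 and Angptl4, p53 for Cdkn1a and the fatty acid receptors of the PPAR family for Pdk4, Angptl4 and Plin4.

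The promoters are shown first, because the genes share a named regulator and the letters at their starts differ. RefSeq promoters (build GRCm38.p6, from 250 bases before to 50 after the start of the RNA) were found for 8 of the 9 genes, 10 promoters in all; Angptl4 was not matched. Both strands were searched for AGAACA, 3 free bases and TGTTCT. A match with at most 2 mismatches was present in 1 of the 8 genes, Sult1a1, where it lay 34 to 20 bases before the start. That is 1 of the 10 promoters, against 1.83% of all 32544 promoters. With at most 3 mismatches Map3k6 and the downstream promoter of Errfi1 also matched, which made 3 of the 10 promoters, against 14.41% of all promoters. For comparison, the exact element was present in 3 promoters of the whole table, of which 1 was the fifth of the promoters of Sgk1, a classic glucocorticoid target. In the stretches below, written 5′ to 3′ on the strand of the gene, capitals mark the hexamers.
Sult1a1: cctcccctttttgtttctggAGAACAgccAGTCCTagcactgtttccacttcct
Map3k6: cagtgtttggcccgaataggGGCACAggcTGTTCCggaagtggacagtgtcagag
Errfi1: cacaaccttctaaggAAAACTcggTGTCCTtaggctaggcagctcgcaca
Sgk1: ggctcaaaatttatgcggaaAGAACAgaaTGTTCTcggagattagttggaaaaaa
The Sult1a1 stretch is chr7:126676419-126676472 on the minus strand, that of Map3k6 chr4:133240616-133240670 on the plus strand, that of Errfi1 chr4:150854820-150854869 on the plus strand and that of Sgk1 chr10:21993681-21993735 on the plus strand. A match is a run of letters and not a shown binding site, and these short windows leave out distant enhancers.

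The promoters were also searched for the other inputs. The p53 element, searched with at most 2 mismatches, was present in the upstream promoter of Cdkn1a, 51 to 32 bases before the start and with 1 mismatch, and in 0.33% of all promoters. The hypoxia response core, ACGTG or GCGTG, was present in 6 of the 8 genes (Cdkn1a, Ddit4, Errfi1, Hif3a, Map3k6 and Pdk4). Counted by promoter it was in 6 of 10, against 44.0% of all promoters, so it is a common match. Capitals mark the p53 element in Cdkn1a and the hypoxia core in the others, where CACGC is GCGTG on the opposite strand.
Cdkn1a: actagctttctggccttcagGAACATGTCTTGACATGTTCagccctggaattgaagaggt
Ddit4: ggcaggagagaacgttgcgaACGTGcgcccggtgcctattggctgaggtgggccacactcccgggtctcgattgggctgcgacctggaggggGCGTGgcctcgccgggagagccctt
Hif3a: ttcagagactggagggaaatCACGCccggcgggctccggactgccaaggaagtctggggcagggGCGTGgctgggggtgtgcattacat
Pdk4: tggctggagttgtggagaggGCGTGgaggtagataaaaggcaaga
These stretches are chr17:29090908-29090967 (plus strand), chr10:59951861-59951977, chr7:17062589-17062677 and chr6:5496325-5496369 (minus strand for the last 3). The PPAR hexamer AGGTCA was present in Errfi1 and Map3k6 (2 of the 10 promoters), in both only after the start, and in 16.25% of all promoters. The forkhead core TGTTTAC was present in none of the 8 genes and in 3.66% of all promoters, and the E-box CACGTG in none of the 8 and in 7.17%.

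Library totals ranged from 18656836 to 34270723 counts, and treated library 6 was the deepest. Neuron markers summed to between 8240 and 10000 CPM (counts divided by a library size scaled by TMM) in the 10 libraries. The 7 adipocyte markers summed to 0.223 to 0.596 CPM, with Cfd and Cidec at 0 in every library, and 7 skeletal muscle markers to 8.28 to 12.6 CPM. Plin4, Pdk4 and Angptl4 are best known in tissues such as these. For comparison, untreated libraries held 0.0396 to 0.508 CPM of Plin4 and 3.33 to 5.07 CPM of Pdk4. The part of traces of such tissues in these levels was not tested. Untreated library 2 and treated library 10 came from females by Xist (418 and 490 CPM, against at most 0.508 in the others). All 13 oligodendrocyte and myelin markers rose with treatment, and their sum was 2170 to 4140 CPM in untreated and 6330 to 8540 CPM in treated libraries. Of 12 astrocyte markers 6 rose and 0 fell (2 at an unadjusted p under 0.05, 0 by DESeq2 and limma-trend) (sums of 3100 to 3770 and 3870 to 4260 CPM). In whole-brain RNA a change in the number of cells of a type and a change in RNA per cell cannot be told apart. Midbrain markers summed to 143, 112 and 76.4 CPM in treated libraries 6, 7 and 9 and to at most 35.1 CPM in the other 7 libraries. Labels give untreated libraries 1 to 3 a name prefix that no treated library has.

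Of the 9 genes, 5 passed the threshold used for all genes (edgeR adjusted p under 0.05) as higher with allopregnanolone and 0 as lower, where 6.61% of all genes tested passed as higher, 4.65% as lower and 11.3% in either direction. Over all genes these were 1131 higher and 795 lower, and 783 higher and 1451 lower when scaled by library totals alone, while all 5 of the 9 genes passed under both scalings. In 4 of the 9, Plin4, Sult1a1, Hif3a and Map3k6, every treated library was above every untreated library, as in 5.44% of all genes, and in 0 of 9 was every treated library below, as in 4.20% of all genes. The contrast was used to choose the genes, so these shares carry no weight of their own. The count of 5 became 4, without Pdk4, when untreated library 1, 2 or 4 or treated library 8, 9 or 10 was left out. It became 1, Hif3a, when untreated libraries 1 to 3 were left out together. It was 4, again without Pdk4, with a covariate for red blood cell markers, 6, with Errfi1, for endothelial markers, and 0 for myelin or for astrocyte markers, both of which were themselves higher in treated libraries. With the astrocyte covariate the log2 differences of the 5 were 1.08 for Pdk4, 3.09 for Plin4, 1.69 for Sult1a1, 1.22 for Hif3a and 2.10 for Map3k6. The cell cycle, mTORC1 and EGF receptor inhibitors differed by at most 0.25 on the log2 scale.

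**Figure D1:**
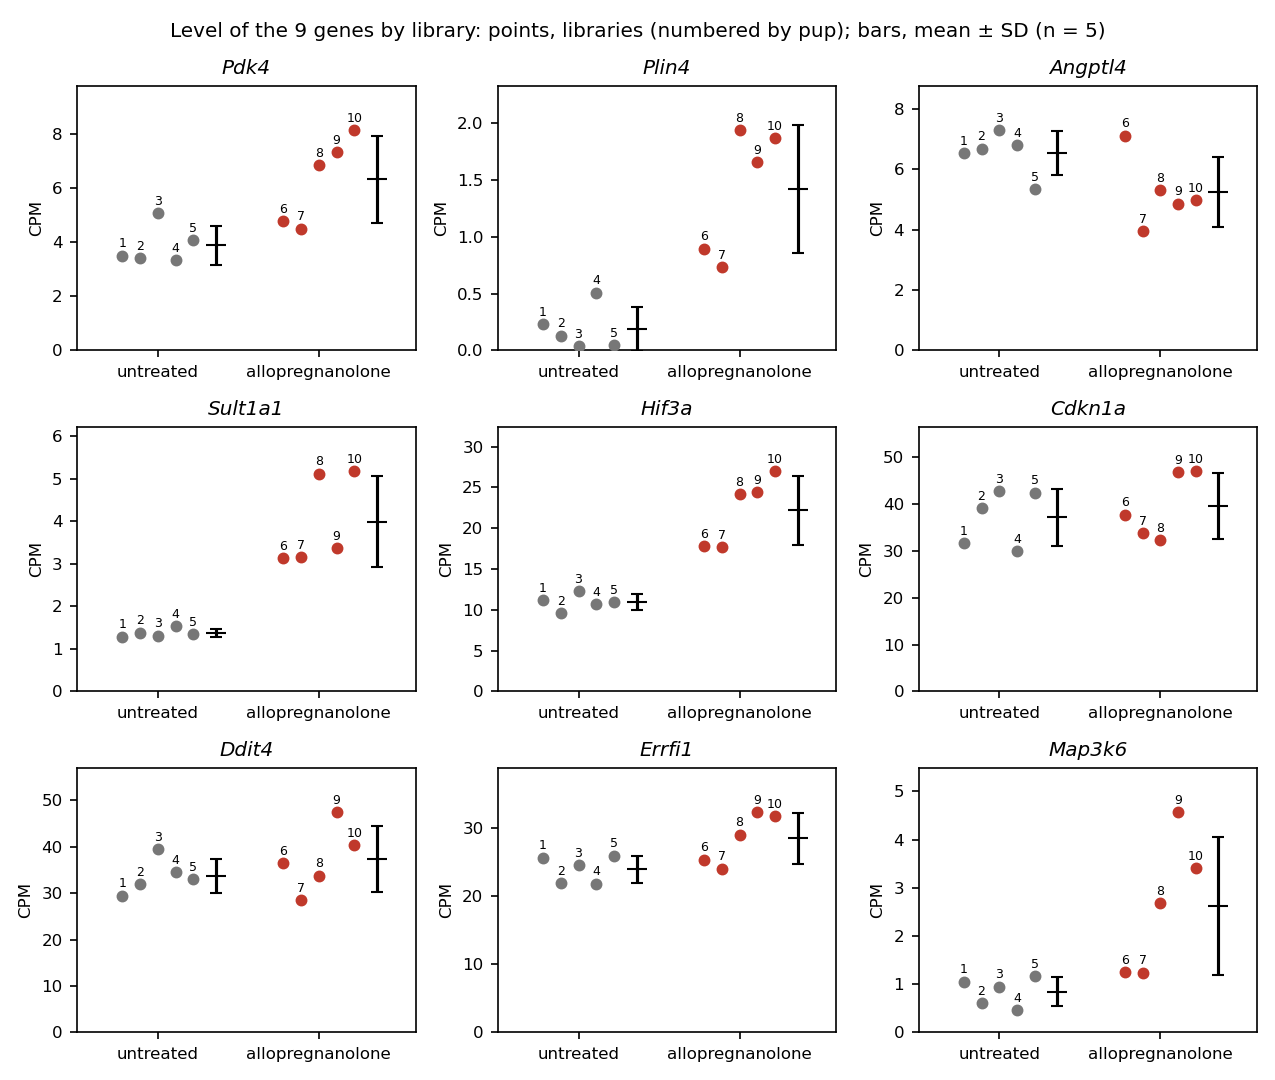
Level of each gene (CPM, vertical axis from 0) in the 5 untreated (grey) and 5 allopregnanolone (red) libraries, numbered by pup; black bars give the mean ± SD (n = 5). Plin4, Sult1a1, Hif3a and Map3k6 have no treated library within the untreated range, and libraries 8, 9 and 10 lie above 6 and 7 in Pdk4, Plin4, Hif3a, Errfi1 and Map3k6.

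Pdk4 (ENSMUSG00000019577, chr6:5483351-5496309, minus strand) encodes a mitochondrial kinase that switches off pyruvate dehydrogenase and so holds glucose carbon back from the citric acid cycle. Its levels were 3.51, 3.41, 5.07, 3.33 and 4.09 CPM in untreated libraries 1 to 5. They were 4.77, 4.50, 6.85, 7.34 and 8.15 CPM in treated libraries 6 to 10. The groups overlapped, since treated libraries 6 and 7 lay below untreated library 3, and libraries 8, 9 and 10 lay above every untreated library. The fitted log2 difference, treated minus untreated, was 0.70 ± 0.18 (SE), or 1.62-fold. It ranged from 0.59 to 0.81 as each library was left out in turn.

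Among the other pyruvate dehydrogenase kinases Pdk2, the most widely expressed form, rose from 72.2 ± 12.3 to 120.0 ± 7.75 CPM, or 1.66-fold (mean ± SD over 5 libraries here and below; log2 difference 0.73 ± 0.10, edgeR adjusted p = 0.000897). Pdk1 and Pdk3 did not pass, with log2 differences of -0.00 ± 0.08 and 0.04 ± 0.09 and 95% intervals of -0.18 to 0.18 and -0.16 to 0.25. Per exon length Pdk4 was the lowest of the 4 kinases at 1.11 ± 0.208 CPM per kilobase of exon (RPKM) in untreated and 1.80 ± 0.458 in treated libraries, below Pdk1 at 3.84 in both groups. Pdk2 was the most abundant at 22.8 ± 3.89 and 38.0 ± 2.45 RPKM, so its rise was the larger in RPKM. The list of the other kinases, the phosphatases and the subunits of the complex had 1 of 11 genes higher, Pdk2, and 0 lower by edgeR (0 at an unadjusted p under 0.05 and by DESeq2 and limma-trend), with a median log2 difference of 0.04 against -0.00 over all genes. Pdk2 was lowest in the 2 untreated libraries with the lowest myelin sums, 3 and 4 (64.4 and 55.7 CPM). With the myelin marker mean as a covariate its difference was 0.14 (edgeR adjusted p = 0.989), and that of Pdk4 was 1.18 (edgeR adjusted p = 0.827). That fit called 0 of all genes, so the 2 values cannot be set against each other. The part of the myelin rise in the Pdk2 result was not tested, because the groups do not overlap in myelin level.

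Plin4 (ENSMUSG00000002831, chr17:56100591-56109803, minus strand) encodes perilipin 4, which coats nascent lipid droplets. It was the least abundant of the 9 genes, with 6, 3, 1, 11 and 1 counts in untreated libraries 1 to 5 and 30, 13, 39, 36 and 39 counts in treated libraries 6 to 10. In CPM these were 0.234, 0.129, 0.0396, 0.508 and 0.0445 against 0.895, 0.732, 1.94, 1.66 and 1.87. The groups did not overlap, and libraries 8, 9 and 10 lay above 6 and 7. Its log2 difference was 2.88 ± 0.52 (SE). With so few counts in the untreated pups it ranged from 2.60 without untreated library 3 to 3.57 without untreated library 4. It was 3.56 with a covariate for midbrain markers, 4.67 with one for myelin markers (edgeR adjusted p = 0.719) and 2.19 by limma-trend with a prior count of 4. Plin4 shares 17 exon bases with Hdgfl2 on the opposite strand, 0.3% of its exons.

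The other perilipins differed less. Plin2, the perilipin found in most cells, fell 1.44-fold, from 7.15 ± 1.72 to 4.99 ± 0.657 CPM (log2 difference -0.53 ± 0.16, edgeR adjusted p = 0.0467). Untreated library 1 held the highest Plin2 value, 10.1 CPM against at most 6.81 in the others, and without it the difference was -0.37 (edgeR adjusted p = 0.0972). That call was also lost when any other library but untreated 2 was left out. Plin3 and Plin5 did not pass (-0.31 ± 0.19 and 0.16 ± 0.42). In treated libraries Plin4 reached 0.246 ± 0.0978 RPKM, near Plin5 at 0.241 ± 0.139 and below Plin2 at 1.42 ± 0.187.

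Of 15 lipid droplet and perilipin genes tested besides Plin4, 4 were higher and 1, Plin2, was lower, with a median log2 difference of 0.16. The 4 were Pnpla2, the lipase that opens triglyceride breakdown (20.2 ± 1.48 to 32.9 ± 3.60 CPM, edgeR adjusted p = 0.000340), Mgll, the lipase of monoglycerides and of the endocannabinoid 2-AG (log2 difference 0.33 ± 0.05), Bscl2, which encodes seipin (0.22 ± 0.05), and Cideb (0.86 ± 0.24). Pnpla2 is also on the list of glucocorticoid-responsive genes. The Cideb call was lost in 6 of the 10 fits that left out 1 library, untreated 1, 3 and 4 and treated 6, 7 and 8. Cideb had 18 to 29 counts in untreated and 28 to 80 in treated libraries. Of its exon bases 1136 (76.3%) are shared with the protein-coding gene Nop9 on the opposite strand. The strand setting of the counting is not known, and the part of Nop9 reads in the Cideb rise was not tested.

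Angptl4 (ENSMUSG00000002289, chr17:33773750-33781830, minus strand) encodes a secreted protein that inactivates lipoprotein lipase, and it responds to glucocorticoids, PPARs and hypoxia. Its levels were 6.52, 6.68, 7.29, 6.79 and 5.34 CPM in untreated libraries 1 to 5 and 7.10, 3.94, 5.31, 4.85 and 4.98 CPM in treated libraries 6 to 10. It was the only 1 of the 9 genes with a lower mean in the treated group, and 4 of 5 treated libraries lay below all untreated ones. The exception was treated library 6, in which fibroblast and meningeal markers summed to 512 CPM against 128 to 170 CPM in the other 9 libraries. This gave a log2 difference of -0.31 ± 0.15 (SE), and of -0.45 without library 6. Within groups Angptl4 varied with the sum of those fibroblast and meningeal markers (r = 0.81 over the 10 libraries after each group's mean was removed, led by library 6), and their part in its level was not tested.

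By edgeR 0 of the 8 tested genes of the angiopoietin-like and lipoprotein lipase list were higher (0 at an unadjusted p under 0.05 and by DESeq2 and limma-trend), and 1, the lipoprotein receptor gene Vldlr, fell (-0.22 ± 0.06, edgeR adjusted p = 0.0394). The Vldlr call was lost in 7 of the 10 fits without 1 library, untreated 1, 3 and 4 and treated 6, 8, 9 and 10. Lpl, which encodes the enzyme that Angptl4 inhibits, is outside the rule for named genes and was looked at for that reason. It did not pass (119.0 to 94.5 CPM, -0.34 ± 0.10, edgeR adjusted p = 0.0507). The list's median was -0.22, and it had 2 genes lower by DESeq2, 2 by limma-trend and 3 at an unadjusted p under 0.05. Of 23 genes on the list of PPARs and their targets 3 were higher and 1 lower, with a median of 0.08. Rxra, the partner of all PPARs, rose from 18.3 ± 1.05 to 28.8 ± 1.88 CPM (0.66 ± 0.07, edgeR adjusted p = 0.000153). Ppard (0.46 ± 0.09) and Txnip (0.48 ± 0.10) rose too, and Acot1, a fatty acyl-CoA thioesterase and PPAR alpha target, fell (-0.46 ± 0.08).

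**Figure D2:**
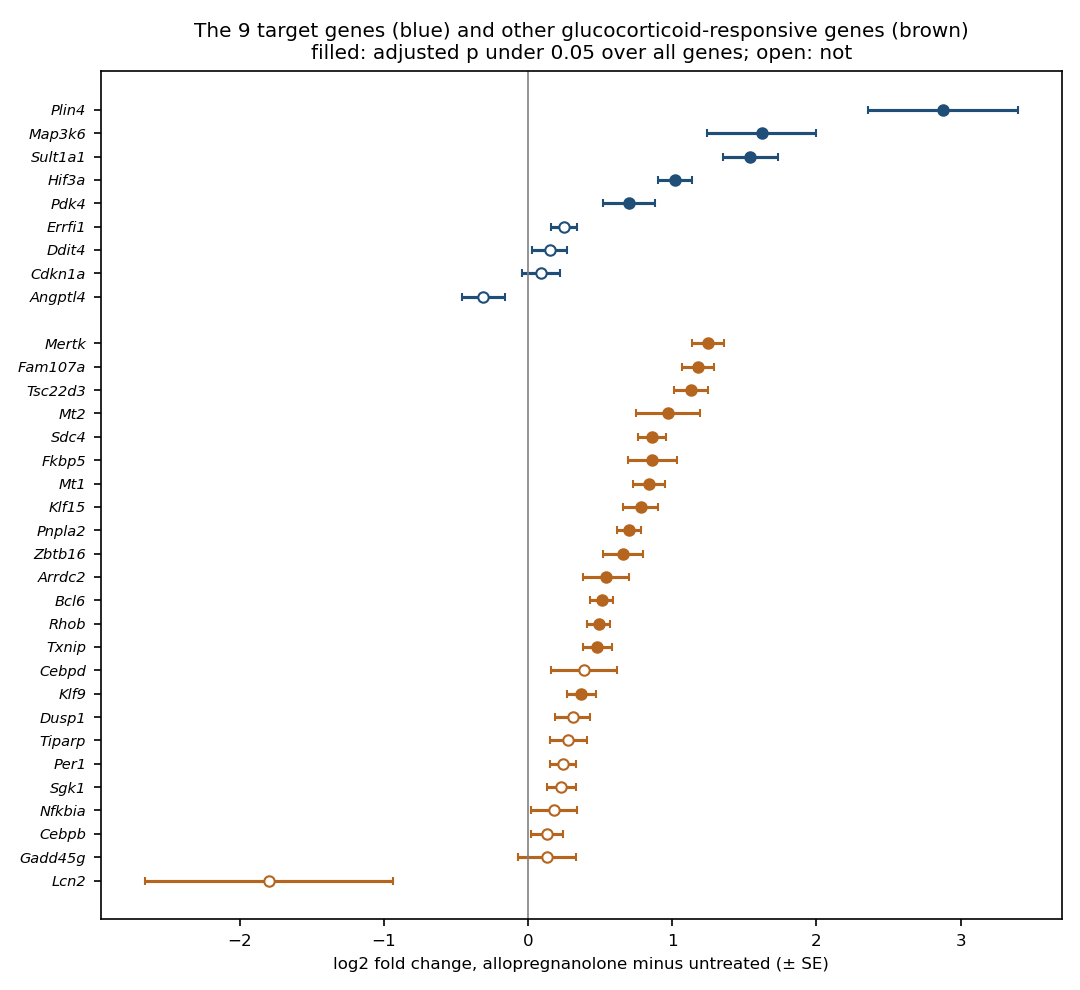
Log2 difference, allopregnanolone minus untreated (horizontal axis, ± SE from 5 and 5 libraries), of the 9 genes (blue) and of 24 other glucocorticoid-responsive genes (brown), with filled points for an edgeR adjusted p under 0.05 over all genes. Plin4, Map3k6, Sult1a1, Hif3a and Pdk4 are filled and lie from 0.70 to 2.88, and Errfi1, Ddit4, Cdkn1a and Angptl4 are open.

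Sult1a1 (ENSMUSG00000030711, chr7:126672865-126676432, minus strand) encodes a cytosolic enzyme that adds sulfate to phenols, catecholamines and some steroids. Its untreated levels lay close together, at 1.29, 1.38, 1.31, 1.53 and 1.34 CPM in libraries 1 to 5. The treated levels were 3.13, 3.15, 5.12, 3.37 and 5.18 CPM in libraries 6 to 10. Every treated library was at more than 3 CPM, and libraries 8 and 10 stood above the other 3, unlike in Pdk4, Hif3a and Map3k6, where library 9 was with them. The difference, 1.54 ± 0.19 on the log2 scale (SE) or 2.91-fold, stayed between 1.43 and 1.62 as each library was left out. Of its exon bases 61 (4.0%) are shared with Sgf29 on the opposite strand, and whether the counting used the strand is not given in the sources used here.

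Of the other sulfotransferases and their cofactor genes 5 of the 11 found in the table passed the count minimum. Sult4a1, a brain sulfotransferase (233 ± 14.3 to 270 ± 15.2 CPM), and Slc35b2, the Golgi carrier of the sulfate donor (32.7 ± 1.36 to 37.9 ± 2.72 CPM), rose, each with a log2 difference of 0.21 ± 0.06. Both calls were lost with scaling by library totals alone and in 7 of the 10 fits without 1 library, untreated 1, 3 and 4 and treated 7, 9 and 10 for both, with treated 8 for Sult4a1 and treated 6 for Slc35b2. No other gene of the list passed, and 0 were lower by edgeR, at an unadjusted p under 0.05, by DESeq2 or by limma-trend (median 0.13).

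Hif3a (ENSMUSG00000004328, chr7:17031507-17062427, minus strand) encodes the third alpha subunit of the hypoxia-inducible factors, some forms of which restrain the other alpha subunits. Its levels were 11.2, 9.57, 12.3, 10.7 and 10.9 CPM in untreated libraries 1 to 5 and 17.8, 17.7, 24.2, 24.4 and 27.0 CPM in treated libraries 6 to 10. The groups were far apart, and the treated libraries fell into 6 and 7 below and 8, 9 and 10 above. The log2 difference was 1.02 ± 0.12 (SE), or 2.03-fold, with a range of 0.94 to 1.09 as each library was left out. It was 1.33 with the midbrain covariate, 1.26 with the endothelial and 1.35 with the myelin covariate (edgeR adjusted p = 0.37 for the last).

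The other alpha subunits moved in opposite directions and by less. Hif1a fell from 89.1 ± 3.72 to 78.0 ± 3.57 CPM (-0.19 ± 0.05, edgeR adjusted p = 0.0225), a call lost without untreated library 4 or treated library 10. Epas1, which encodes HIF-2 alpha and is abundant in endothelium and astrocytes, rose from 131 ± 9.96 to 163 ± 13.2 CPM (0.32 ± 0.07, edgeR adjusted p = 0.00950). The Epas1 difference was -0.01 with the myelin covariate (edgeR adjusted p = 0.999) and 0.22 with the endothelial covariate (edgeR adjusted p = 0.121). Per exon length Hif3a remained the least abundant of the 3, at 1.63 ± 0.145 and 3.31 ± 0.632 RPKM, against 23.4 ± 1.78 and 29.1 ± 2.36 RPKM for Epas1. No other gene of the 9 HIF subunits and oxygen sensors passed.

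Of 20 hypoxia-inducible targets tested 2 were higher and 1 lower, with a median of 0.07. The sum of the list was 1860 to 2030 CPM in untreated and 2040 to 2210 CPM in treated libraries. Slc2a1, which encodes the glucose transporter GLUT1 of the blood-brain barrier and glia, rose from 49.2 ± 1.37 to 92.6 ± 11.3 CPM (0.91 ± 0.07, edgeR adjusted p = 8.3e-05). Its treated levels were 76.7, 85.9, 96.0, 105.0 and 98.8 CPM in libraries 6 to 10, with libraries 6 and 7 again the lowest. Aldoa, a glycolytic enzyme gene, rose by 0.25 ± 0.05. P4ha1, a collagen prolyl hydroxylase gene, fell (-0.21 ± 0.06), a call lost in 7 of the 10 fits without 1 library, untreated 1, 3 and 4 and treated 6, 8, 9 and 10.

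**Figure D3:**
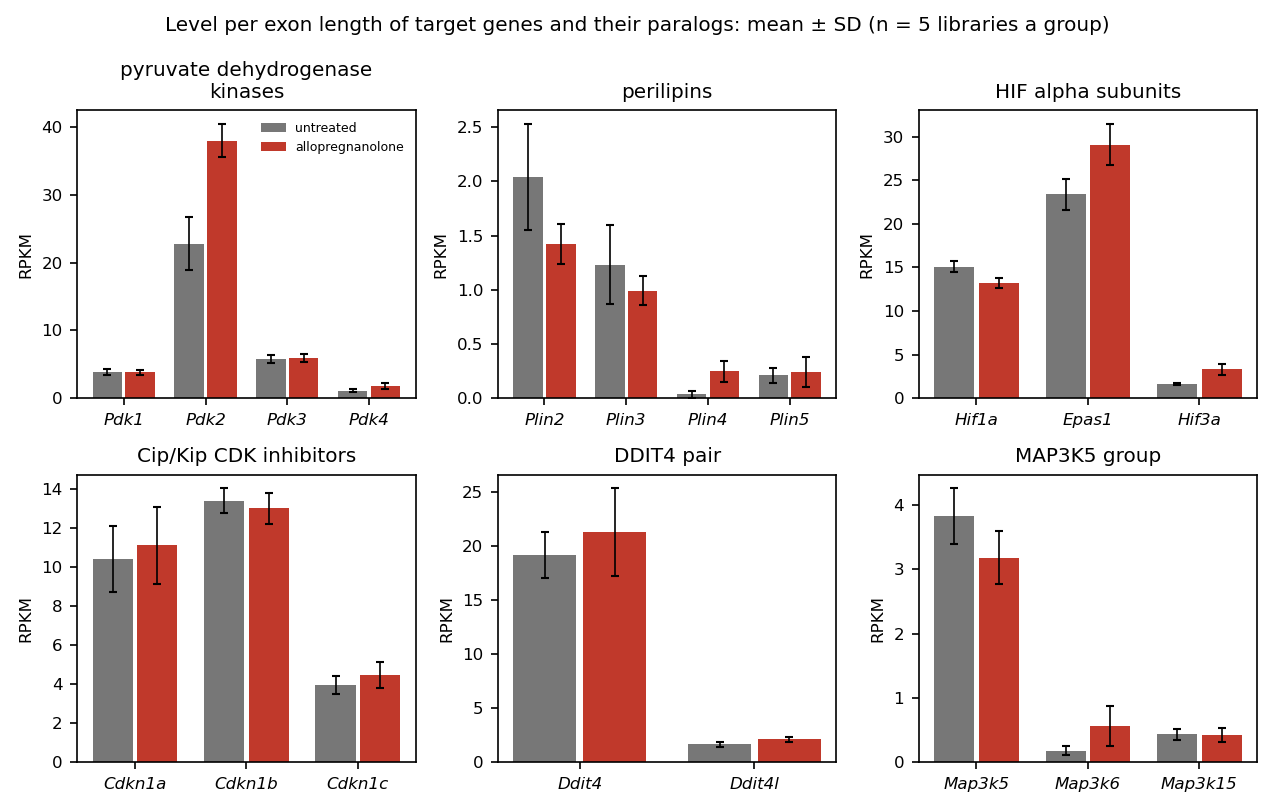
Level per exon length (RPKM, vertical axes from 0) of Pdk4, Plin4, Hif3a, Cdkn1a, Ddit4 and Map3k6 beside their paralogs, as mean ± SD over 5 untreated (grey) and 5 allopregnanolone (red) libraries. Pdk4 and Hif3a are the least abundant of their families in both groups, and Pdk2 reaches 38.0 RPKM in treated libraries.

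Cdkn1a (ENSMUSG00000023067, chr17:29090976-29100727, plus strand) encodes p21, which halts cells in G1 by inhibiting cyclin-dependent kinases. Its levels were 31.6, 39.1, 42.7, 29.9 and 42.4 CPM in untreated libraries 1 to 5 and 37.7, 33.8, 32.3, 46.8 and 47.0 CPM in treated libraries 6 to 10. The ranges overlapped over most of their length, with treated libraries 9 and 10 highest. Treated minus untreated, the log2 difference was 0.09 ± 0.13 (SE). AC167363.2, on the opposite strand, shares 7.7% of its exon bases.

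By edgeR, DESeq2 and limma-trend 0 of the 5 other CDK inhibitors tested passed in either direction (1, Cdkn2b, was higher at an unadjusted p under 0.05), and their median was -0.03. Cdkn1b (p27) had a log2 difference of -0.03 ± 0.05 and Cdkn1c (p57) of 0.19 ± 0.12. Among 16 cyclin, CDK and proliferation genes, 6 fell and 1 rose, with a median of -0.27 against -0.00 over all genes. Those that fell included Pcna, the DNA clamp of replication (33.6 ± 1.74 to 26.8 ± 1.65 CPM, edgeR adjusted p = 0.00499), Ccnd2 (-0.40 ± 0.08), Ccnb1 (-0.93 ± 0.23) and the proliferation marker Mki67 (-0.84 ± 0.21). Untreated library 1 had by far the highest Mki67 value, 38.5 CPM against 15.9 to 21.2 CPM in the other 4, and without it the Mki67 difference was -0.54 (edgeR adjusted p = 0.00951). The Ccnb1 call was lost without untreated library 1 or 4. The rise of Ccnd3 (0.26 ± 0.08) was lost in 9 of the 10 fits without 1 library, all but that without treated library 7, and with library totals or upper-quartile scaling. Of 23 p53 targets tested besides Cdkn1a, Phlda3 and Trp53inp1 rose (each 0.59, ± 0.12 and ± 0.14) and Bbc3, which encodes the death protein PUMA, fell (-0.40 ± 0.12), with a list median of 0.03. The Bbc3 call was lost in 8 of the 10 fits without 1 library, all but those without untreated 2 and treated 9.

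Ddit4 (ENSMUSG00000020108, chr10:59949669-59951834, minus strand) encodes REDD1, which restrains mTORC1 through the TSC complex. Its levels were 29.5, 31.9, 39.5, 34.5 and 33.0 CPM in untreated libraries 1 to 5 and 36.5, 28.5, 33.8, 47.5 and 40.4 CPM in treated libraries 6 to 10. Treated library 7 was the lowest of all 10 and treated library 9 the highest, so the groups overlapped. The log2 difference was 0.15 ± 0.12 (SE). Per exon length Ddit4 was the most abundant of the 9 genes, at 19.2 ± 2.13 and 21.3 ± 4.07 RPKM.

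Its paralog Ddit4l did not pass (0.35 ± 0.13, edgeR adjusted p = 0.101). Of 20 mTORC1 inputs and inhibitors 1 rose, the arginine sensor gene Castor1 (2.35 ± 0.370 to 3.62 ± 0.608 CPM, edgeR adjusted p = 0.0276), and 0 fell by edgeR, DESeq2 and limma-trend (1 at an unadjusted p under 0.05), with a median of 0.07. The Castor1 call was lost without untreated library 1, 3 or 4 or treated library 10. Integrated stress response genes, which Ddit4 often accompanies, had 0 of 13 higher by edgeR (1 at an unadjusted p under 0.05, 1 by DESeq2 and 0 by limma-trend) and 2 lower, Vldlr and the cystine transporter gene Slc7a11 (-0.27 ± 0.08), with a median of 0.08. The Slc7a11 call was lost in 8 of the 10 fits without 1 library, all but those without untreated 2 and treated 6.

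Errfi1 (ENSMUSG00000028967, chr4:150853919-150868892, plus strand) encodes MIG6, which binds and inhibits the EGF receptor. Its levels were 25.6, 21.9, 24.5, 21.8 and 25.9 CPM in untreated libraries 1 to 5 and 25.3, 24.0, 29.0, 32.3 and 31.7 CPM in treated libraries 6 to 10. Libraries 8, 9 and 10 were above every untreated library, and 6 and 7 were within the untreated range. The log2 difference was 0.25 ± 0.09 (SE), and it was 0.41 with the endothelial and 0.43 with the midbrain covariate.

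Of 23 ERBB receptor, ligand and feedback genes tested besides Errfi1, 1 rose and 2 fell, with a median of 0.01. Erbb3, a neuregulin receptor gene used by the oligodendrocyte and Schwann cell lineages, rose from 4.08 ± 0.695 to 6.79 ± 0.510 CPM (0.74 ± 0.13, edgeR adjusted p = 0.00434). Egfr fell (-0.30 ± 0.09), a call lost in 9 of the 10 fits without 1 library, all but that without untreated library 2. Socs2, a feedback inhibitor of cytokine and growth hormone signalling, fell (-0.38 ± 0.07, edgeR adjusted p = 0.00720).

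Map3k6 (ENSMUSG00000028862, chr4:133240818-133252929, plus strand) encodes ASK2, a stress-activated kinase that pairs with ASK1, the product of Map3k5. Its levels were 1.05, 0.603, 0.951, 0.462 and 1.16 CPM in untreated libraries 1 to 5. They were 1.25, 1.24, 2.68, 4.57 and 3.40 CPM in treated libraries 6 to 10. Treated libraries 6 and 7 were only just above the highest untreated library, at 42 and 22 counts against 26 counts in untreated library 5, and libraries 8 to 10 were further up. Its log2 difference was 1.62 ± 0.38 (SE), and 1.32 to 1.80 as each library was left out. It was 2.28 with the midbrain covariate and 2.26 with the endothelial and with the red blood cell covariate. Neither Map3k5 (-0.27 ± 0.10, edgeR adjusted p = 0.103) nor Map3k15 (-0.00 ± 0.22, 95% interval -0.48 to 0.48) passed. Of 19 genes of the stress-activated MAP kinase cascade 0 rose by edgeR (2 at an unadjusted p under 0.05, 1 by DESeq2 and 0 by limma-trend) and 1 fell, the JNK1 gene Mapk8 (153 ± 12.8 to 124 ± 6.01 CPM, edgeR adjusted p = 0.00756), with a median of 0.08.

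The variation of the genes with each other within the groups was described by pairs. The group mean was removed from the log2 CPM of each gene, and Pearson's r was then computed over the 10 libraries, which share their depth and tissue makeup and serve as a description only. Of the 36 pairs 17 had an r of 0.5 or more, the median was 0.39 and the range -0.44 to 0.98. The share over pairs of all genes was not computed, so this count is not set against other genes. Errfi1 and Map3k6 had the highest r, 0.98, followed by Pdk4 and Hif3a at 0.93. Hif3a with Errfi1 had 0.86, and Pdk4 with Errfi1, Pdk4 with Map3k6 and Hif3a with Map3k6 had 0.83 each. Cdkn1a and Ddit4, which differed little between the groups, had 0.70 with each other and 0.65 and 0.72 with Pdk4. Angptl4 had at most 0.31 with any of the others. Plin4 had at most 0.53 over the 10 libraries, but over the 5 treated ones it had 0.96 with Pdk4 and with Hif3a, 0.91 with Errfi1 and 0.89 with Map3k6. In the untreated libraries, at 1 to 11 counts, these were -0.81, -0.35, -0.54 and -0.70. Among the 17 pairs, untreated r was also below 0 for Pdk4 with Sult1a1 (-0.54) and Sult1a1 with Hif3a (-0.43). The same held for Ddit4 with Errfi1 (-0.13) and with Map3k6 (-0.09). In the rest of the 17 pairs untreated r was 0.32 or more, up to 0.97 for Errfi1 with Map3k6.

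**Figure D4:**
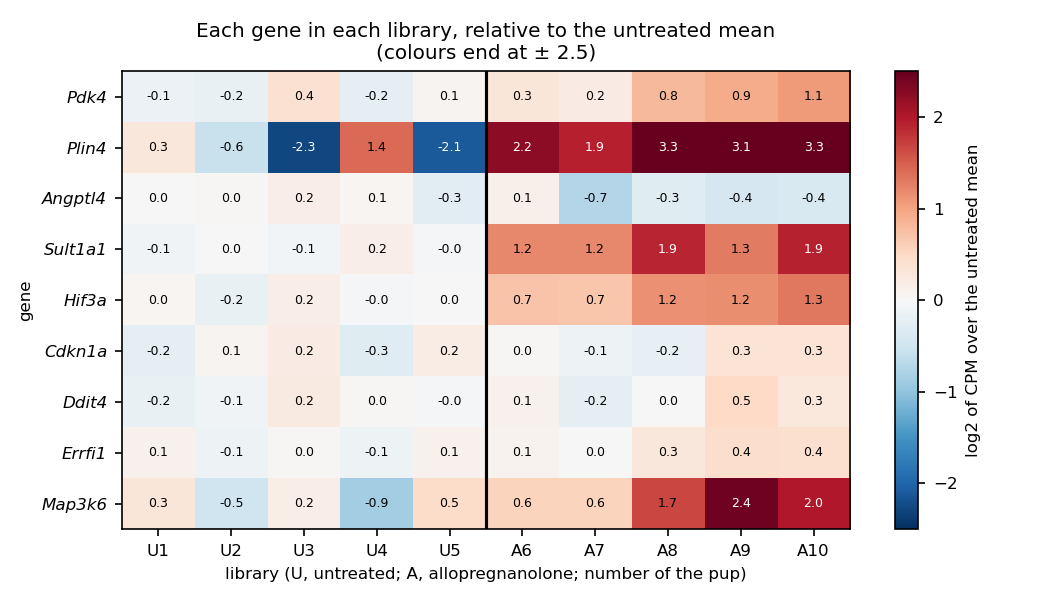
Log2 of the CPM of each of the 9 genes (rows) over its untreated mean, in untreated (U) and allopregnanolone (A) libraries by pup (columns). Libraries A8, A9 and A10 have higher values than A6 and A7 in the rows of Pdk4, Plin4, Sult1a1, Hif3a, Errfi1 and Map3k6, and the rows of Cdkn1a and Ddit4 stay between -0.31 and 0.50.

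The mean over the 9 genes of their group-centred, standardized levels was -0.56 and -1.35 in treated libraries 6 and 7 and 0.26, 0.71 and 0.94 in libraries 8, 9 and 10. In untreated libraries it ran from -0.30 to 0.44. Midbrain markers were high in treated libraries 6, 7 and 9, and within groups the r with their log2 sum was -0.81 for Hif3a and -0.88 for Sult1a1. For the others of the 9 it ran from -0.64 (Pdk4) to 0.17 (Angptl4). Over the treated libraries alone Hif3a had -0.85 and Sult1a1 -0.99, and over the untreated ones -0.59 and 0.15. For the endothelial sum the within-group r was -0.86 for Pdk4 and -0.81 for Hif3a, although that sum covered a narrow range of 285 to 340 CPM. For the others of the 9 it ran from -0.78 (Errfi1) to 0.10 (Plin4). For the myelin sum it was -0.45 for Hif3a, -0.44 for Sult1a1 and -0.40 for Pdk4, and over the 5 treated libraries -0.80, -0.94 and -0.74. For the other genes of the 9, r with the myelin sum over the treated libraries ran from -0.78 (Plin4) to 0.34 (Angptl4). Myelin markers were higher in every treated library than in any untreated one, as were Hif3a and Sult1a1 but not Pdk4. The part of regional or cell makeup in these levels was not tested.

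Fkbp5, which encodes a chaperone that feeds back on the glucocorticoid receptor and is a standard readout of its activity, had 22.7, 20.4, 20.6, 19.5 and 19.5 CPM in untreated libraries 1 to 5. In treated libraries 6 to 10 it had 22.5, 29.2, 40.9, 46.3 and 48.7 CPM, the same 3 libraries being high. Its within-group r was 0.86 with Hif3a, 0.81 with Map3k6, 0.79 with Errfi1, 0.76 with Pdk4, 0.61 with Sult1a1, 0.43 with Plin4 and -0.33 with Angptl4. In the untreated libraries alone r between Fkbp5 and these 7 genes ran from -0.63 to 0.40, and in the treated ones it was 0.95 for Hif3a and 0.93 for Pdk4 and Map3k6.

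**Figure D5:**
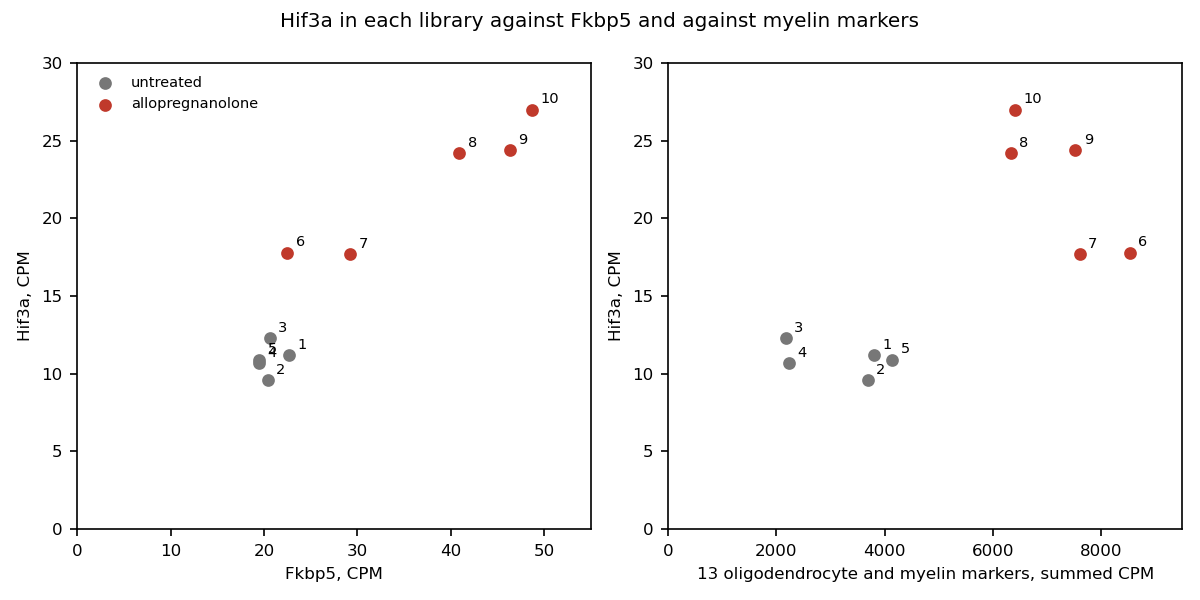
Hif3a (vertical axis, CPM) against Fkbp5 (left, CPM) and against the summed CPM of 13 oligodendrocyte and myelin markers (right) in untreated (grey) and allopregnanolone (red) libraries, numbered by pup. Hif3a and Fkbp5 are both highest in libraries 8, 9 and 10, and the myelin sum is highest in library 6, where Hif3a is 17.8 CPM.

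Among 13629 named genes with a mean of at least 1 CPM, the 8 most like the mean pattern of the 9 genes within groups were Emc8 (r = 0.98), Pdhx (0.95), Mst1r (0.95), Ddx42 (0.94), Srp54c (0.92), Pdgfra (0.92), Eea1 (0.91) and Hes6 (0.91), over 10 libraries. None of these 8 passed the test between the groups (log2 differences from -0.19 to 0.07). They are the highest of 13629 values over only 10 libraries, so an r this high can come from the selection alone. A link with the 9 genes was not tested.

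Of 24 other glucocorticoid-responsive genes 15 rose and 0 fell by edgeR (0 fell at an unadjusted p under 0.05 and by DESeq2 and limma-trend), with a median log2 difference of 0.50 against -0.00 over all genes. The list was written with earlier results of these libraries known and is not independent evidence of a direction. Mertk, a receptor for the uptake of dying cells, rose from 13.5 ± 1.30 to 32.1 ± 5.48 CPM and Fam107a from 73.8 ± 11.7 to 167 ± 21.6 CPM (edgeR adjusted p = 0.000107 for both). Tsc22d3, which encodes the anti-inflammatory protein GILZ, rose from 27.5 ± 2.98 to 60.3 ± 10.9 CPM (1.13 ± 0.12, edgeR adjusted p = 0.000193). Sgk1, Per1 and Dusp1, whose glucocorticoid induction is textbook knowledge, were among the 9 that did not pass, with log2 differences of 0.23 ± 0.10, 0.24 ± 0.09 and 0.31 ± 0.12. The promoter with the exact element shown above is 1 of several promoters of Sgk1. The number of genes on this list that passed fell to 6 in the fit without untreated libraries 1 to 3.

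Neither corticosteroid receptor gene passed by edgeR with all libraries and TMM scaling. The glucocorticoid receptor gene Nr3c1 had a log2 difference of -0.15 ± 0.05 (61.3 ± 2.48 to 55.1 ± 2.59 CPM, edgeR adjusted p = 0.0597) and passed as lower under 5 of 26 alternatives, among them DESeq2 (adjusted p = 0.0400) and scaling by library totals alone (edgeR adjusted p = 0.0130). The mineralocorticoid receptor gene Nr3c2 had a difference of 0.00 ± 0.09, with a 95% interval of -0.18 to 0.19. Of 12 receptor, chaperone and steroid activation genes 1 rose and 0 fell by edgeR (2 fell at an unadjusted p under 0.05, 1 by DESeq2, which was Nr3c1, and 0 by limma-trend); the 1 that rose was Hsd11b1, which encodes the enzyme that regenerates active glucocorticoid inside cells (8.34 ± 1.16 to 11.5 ± 1.12 CPM, edgeR adjusted p = 0.0175). The Hsd11b1 call was lost without untreated library 3. Of 15 FOXO factors and targets, a programme that glucocorticoids and low insulin signalling share, 5 rose and 0 fell by edgeR, DESeq2 and limma-trend. At an unadjusted p under 0.05 by edgeR 8 were higher and 0 lower, and the median was 0.24. Klf15 (0.78 ± 0.12), Bcl6 (0.51 ± 0.08), Irs2 (0.33 ± 0.06) and Txnip (0.48 ± 0.10) were among the 5, and Klf15, Bcl6 and Txnip are also on the glucocorticoid list.

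Within the 7 libraries that share a name prefix, 2 untreated and 5 treated, the log2 differences of the 9 genes were 2.34 for Plin4, 0.76 for Pdk4, 1.47 for Sult1a1, 1.03 for Hif3a and 1.68 for Map3k6. They were -0.20 for Angptl4, 0.13 for Cdkn1a, 0.14 for Ddit4 and 0.25 for Errfi1. All 9 kept their sign there, and 80 genes in all passed as higher and 25 as lower in that fit. The labels do not say that the pups came from separate litters, so the spread between libraries may include shared litters.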

How the data were processed

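Whole-brain RNA (RNeasy Mini Plus) became NEBNext Ultra II Directional libraries, per the labels' protocols. Partek and mm10 are named in the submitters' processing notes. The aligner, counter, annotation and strand setting were not given in the sources used here. The deposited table holds the authors' estimated counts (expected counts) per Ensembl gene identifier, although its name calls them normalized: 86.8% to 87.6% of the values above 0 were whole, and library totals differed. They were rounded to whole numbers. Of 55471 identifiers 55230 had a name in GENCODE M21 (GRCm38).

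Genes with 10 or more counts in at least 5 libraries were kept. TMM factors were 0.953 to 1.041. Groups were compared by edgeR 4.0.16 in R 4.3.3 (glmQLFTest, two-sided, Benjamini-Hochberg over 17101 genes, threshold 0.05). Standard errors are the log2 difference over the root of F. RPKM are these CPM per kilobase of merged exons. Within-group r used log2 CPM with a prior count of 1. On simulated counts for this comparison over 16916 genes, 66% of the 1.5-fold changes were recovered, as were 87.8% of the 2-fold ones, and 1.9% of the simulated calls were wrong. Only 200 genes were changed there, and genes were drawn independently with a dispersion set by their mean level. Shared cell makeup, litters and name prefixes were not simulated, so these shares may not hold for the real libraries. Replicate pairs differed beyond counting noise (chi-square over its degrees of freedom, 5.45 to 19.8). P-values set the difference between the groups against the spread between these libraries, which may not be that between independent pups.

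Alternatives were other scalings, count filters, DESeq2 1.42.0, limma-trend (limma 3.58.1), marker covariates and libraries left out. The myelin and astrocyte covariates and the p53 element were added after values were seen. The 9 genes and all lists were chosen with earlier results of these data known. Named genes are the 9, up to 4 of each list past the threshold per direction by smallest p, their direct paralogs and the corticosteroid receptors, and the 8 genes most like the 9 within groups, plus genes named for a library, promoter or covariate, the last chosen after their values were seen (Fkbp5, Lpl, Sgk1, Per1 and Dusp1 among them). Figures used matplotlib 3.10.9 (Python 3.11.15).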

Additional observations from a re-analysis of the deposited data

Results flagged for a closer look

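The level of each gene named by rule was checked in each group of 5 libraries for a library at a distance from the rest, with a gap to its nearest neighbour of over 0.71 of the group's range. Of 118 groups of values from 59 genes 3 had such a library, where chance gives about 1 in 20, and none was a group of the 9 target genes. Castor1 was at 4.70 CPM in treated library 10, against 3.28 to 3.49 CPM in the other 4. Mki67 was at 38.5 CPM in untreated library 1, against 15.9 to 21.2 CPM, and Plin2 was at 10.1 CPM in the same library, against 5.69 to 6.81 CPM.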

How the results depend on the processing

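No paired analysis was possible because the groups carry different pup numbers, 1 to 5 and 6 to 10. None of the 9 target genes changed the sign of its log2 difference under any of the 25 or 26 alternatives in which it was tested; Plin4, Sult1a1 and Map3k6 were not tested with the minimum of 100 counts. Against 1131 genes higher and 795 lower, there were 173 and 83 with a midbrain covariate, 309 and 151 with an endothelial and 536 and 301 with a red blood cell covariate, 2 and 12 with an astrocyte covariate, and 80 and 25 without untreated libraries 1 to 3. With a myelin covariate edgeR called 0 and 0 (399 and 493 at an unadjusted p under 0.05; that fit was not run in another tool). Library totals alone gave 783 and 1451 with a median shift of all genes of -0.064, and DESeq2 gave 1498 and 1129. Leaving out 1 library gave 645 to 1360 higher and 435 to 983 lower genes, with counts over 1.5 times below those of all libraries without untreated 1 (716 and 519), 3 (645 and 471) or 4 (649 and 435). The 15 other glucocorticoid-responsive genes higher became 13 to 17 with 1 library left out and 6 without untreated libraries 1 to 3. By edgeR they became 0 with the myelin or the astrocyte covariate, where 13 were higher at an unadjusted p under 0.05 in each. Epas1 was at -0.01 with the myelin covariate. The cause of these changes was not tested. With the myelin covariate Plin4 was at 4.67, Pdk4 at 1.18, Sult1a1 at 2.00, Hif3a at 1.35 and Map3k6 at 1.44 (log2), none of them past the threshold. Errfi1 passed as higher with the endothelial covariate, and Angptl4 as lower without treated library 6. Low counts limit Plin4, at 1 to 11 counts in untreated libraries.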
